A study of Mus musculus with 8 samples.

Results

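Genes of matrix proteolysis were examined in 8 mouse pancreatic tumours: the matrix metalloproteinases (Mmp), the ADAMTS proteinases (Adamts) and the tissue inhibitors of metalloproteinases (Timp). They were taken by name and annotation alone, as every protein-coding row of the deposited count table named Mmp or Adamts with a number, or Timp1 to Timp4. The rule found 45 genes among 54532 (22 Mmp, 19 Adamts and 4 Timp). Mmp1a, a mouse interstitial collagenase, fell outside it because the table lists it as a polymorphic pseudogene, and it had 0 counts in the 8 libraries. The tumours grew from the KPC line, which derives from pancreatic ductal adenocarcinoma of the mouse, placed in the pancreas of C57BL/6 mice. One group of 4 libraries came from mice given saline and the other 4 from mice given TLQP21, a peptide derived from the neurosecretory protein VGF, for 2 weeks, and the implanted line was common to both groups. Dose, age, sex and the clonal origin of the line are not given in the sources used here, nor whether each library came from a separate animal, so that the p-values measure the spread between these libraries, which may be partly technical. Tumour tissue was sequenced, and it held transcripts of fibroblasts, leukocytes and acinar cells beside those of the labelled cancer cells, and in such bulk samples fewer cells of a type and less RNA per cell cannot be told apart.

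Matrix metalloproteinases are zinc enzymes that are made as inactive precursors and cut collagens, laminins, elastin and many secreted or membrane proteins. ADAMTS enzymes are related secreted proteinases with thrombospondin repeats, which trim procollagens and cleave large proteoglycans such as versican and aggrecan. The 4 Timp proteins bind the active site of these enzymes and hold them in check. In pancreatic cancer, which is rich in fibrous stroma, the enzymes come from several cell types: fibroblasts, macrophages, neutrophils and the carcinoma cells themselves.

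Library totals ran from 28358465 to 28963457 counts in Saline and from 29027480 to 33536087 in TLQP21. Libraries 1 and 2 of each group carried Xist (9960 to 10625 counts), and libraries 3 and 4 carried Y-linked transcripts instead (2027 to 2247 counts). Each treatment thus held 2 libraries of each kind. The 8 tumour epithelium markers were present in each library, with summed levels of 6658 to 7144 CPM (library-scaled counts) in Saline and 7113 to 7469 in TLQP21. Saline 4 had the highest sums of the neutrophil, fibroblast and acinar markers, and Saline 2 held hepatocyte markers at 4876 CPM against 5.75 to 10.3 in the other 7 libraries.

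Inhibitors and a few enzymes dominated the family. On a scale of CPM per kilobase of gene length, which allows a rough comparison of levels between genes, Timp1 was highest at 182 ± 56.1 (SD over the 8 libraries) and Timp2 next at 120 ± 10.1. The ranges of this pair overlapped, and Timp1 lay above Timp2 in 6 of 8 libraries, the exceptions being Saline 3 and TLQP21 4. Mmp14, the membrane-type enzyme that activates pro-Mmp2, followed at 77.5 ± 7.15, and its highest library (90.9) lay below the lowest of Timp2 (109). Mmp2, the gelatinase of stromal cells, was at 55.9 ± 14.4, a range that overlapped that of Mmp14 and not that of Timp3. Timp3 (32.8 ± 5.27) and Adamts1 (27.5 ± 6.65) came next and overlapped each other. Mmp7, Mmp12, Mmp13, Mmp9, Mmp3 and Mmp28 followed between 22.6 and 11.1, and each overlapped the next in that order. Levels then declined to 0.066 for Adamts17, the lowest gene tested. Summed over the family, Mmp14 made up 25.8 to 34.8% of Mmp level per kilobase and Mmp2 18.1 to 24.2%, and Adamts1 made up 32.1 to 46.5% of Adamts level. The order, the shares and any sum per kilobase depend on the deposited gene length. For Mmp12 (7237 bases) and Mmp7 (1068 bases) it equalled all annotated exon bases together, so genes with long or alternative exons rank lower. In CPM alone Mmp12 lay above Mmp7, with Saline means of 137 and 26.2.

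**Figure D1:**
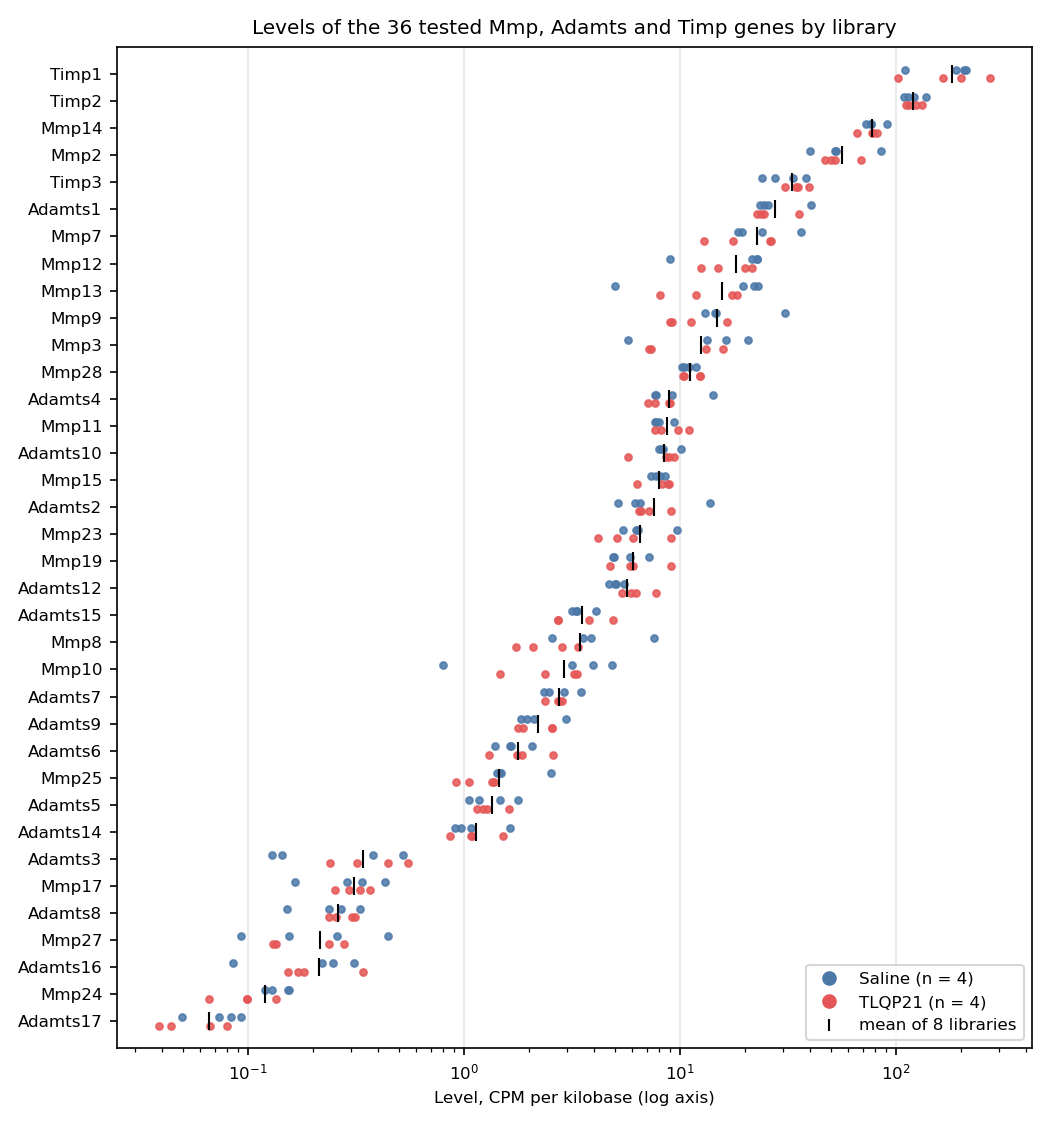
Level of each of the 36 tested genes in CPM per kilobase (horizontal log axis), with 1 point per library (blue, Saline; red, TLQP21) and a bar at the mean of the 8 libraries. Timp1 and Timp2 lead at 182 and 120, and Saline 3 is the lowest library for Mmp13, Mmp12, Mmp3 and Mmp10.

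Between TLQP21 and Saline tumours, no member of the family passed the test. Of 45 genes, 36 had enough counts to be tested and 9 did not. With edgeR's quasi-likelihood test, adjusted over 18238 genes, 0 of the 36 were called, against a background of 0% of all genes; DESeq2 and limma's voom also called 0 members. At an unadjusted p under 0.05 stood 4 members by edgeR, 4 by DESeq2 and 5 by voom. DESeq2 gave the same genes as edgeR, whereas voom left out Mmp25 and held Mmp11 and Mmp28 instead. The edgeR set was Mmp8, Mmp9 and Mmp25, lower in TLQP21 (2.26% of all genes), and Adamts12, higher (0.795% of all genes); in either direction the share of all genes was 3.06%. Of the 36 fold changes 23 lay below 0 (63.9%, against 49.4% of all genes), with a median log2 fold change of -0.06 against 0.00 over all genes. This tilt was not seen without Saline 4: 13 of the 36 then lay below 0 and the median was 0.06. Over all genes 9212 of 18238 then lay below 0, with a median of -0.002. Saline 4 was the highest Saline library for 24 of the 36 genes. It was the highest of all 8 libraries for 19 of them, against 3018 of 18238 genes. For 26 of the 36 members the 95% interval excluded a 2-fold change in either direction, and for the other 10 it did not. Over all genes it did so for 14518 of 18238.

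**Figure D2:**
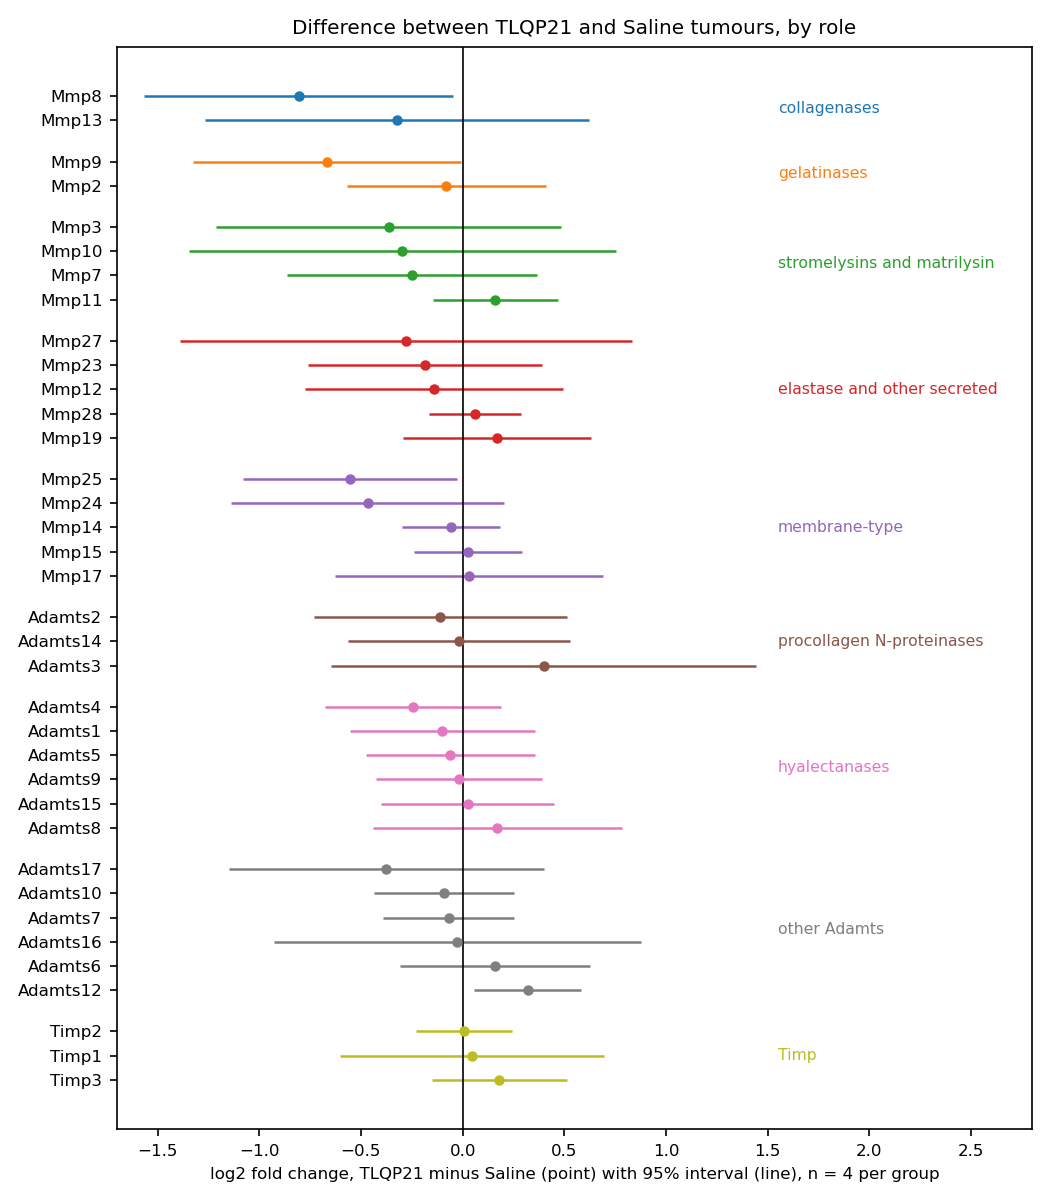
log2 fold change of TLQP21 over Saline for the 36 tested genes, grouped by role, with 95% intervals from the edgeR fit (n = 4 per group). Intervals of Mmp8, Mmp9 and Mmp25 lie below 0 and that of Adamts12 above it before adjustment, and every adjusted p is 0.9999.

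The 3 members with the lowest log2 fold changes were Mmp8, Mmp9 and Mmp25, none of them called. Mmp8, the collagenase stored in neutrophil granules, was at 9.39, 8.58, 6.18 and 18.4 CPM in Saline 1 to 4 and at 6.88, 4.23, 8.17 and 5.03 in TLQP21 1 to 4. Saline 4 stood above all others, and the groups overlapped. The means were 10.6 ± 5.34 and 6.08 ± 1.78 CPM (log2 fold change -0.81, SE 0.34, 95% interval -1.57 to -0.05, edgeR adjusted p = 0.9999, n = 4 per group). Mmp9, the gelatinase of neutrophils and macrophages, which opens basement membranes, was at 51.1, 52.0, 46.2 and 108 CPM under saline and at 58.1, 39.9, 32.4 and 31.7 in TLQP21. Saline 4 was again highest, TLQP21 1 exceeded the other 3 Saline libraries, and the log2 fold change was -0.67 (SE 0.29, edgeR adjusted p = 0.9999). Mmp25, a glycolipid-anchored enzyme of leukocytes, was at 7.83, 7.53, 7.76 and 13.4 CPM under saline and at 7.32, 7.11, 4.85 and 5.59 in TLQP21. Its groups did not overlap, the only such case among the 36 tested members (1.66% of all genes), although the lowest Saline and highest TLQP21 libraries were separated by a small margin. The log2 fold change of Mmp25 was -0.55 (SE 0.24, edgeR adjusted p = 0.9999).

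Neutrophil markers also lay lower in TLQP21. All 12 neutrophil markers (none of them a member) lay below 0 (49.4% of all genes), and 0 of them were called. At an unadjusted p under 0.05 were 8 of the 12, all lower (2.26% of all genes). Their summed level ran from 540 to 1487 CPM under saline and from 328 to 647 in TLQP21, with Saline 4 at 1487 and TLQP21 1 highest of its group, whereas Mmp8 was highest of that group in TLQP21 3 (marker sum 387), and no marker was at 0 in any library. The 10 macrophage and monocyte markers summed to 1653 to 1824 CPM under saline and 1234 to 2009 in TLQP21. Of these 10, 8 lay below 0, 2 of them at an unadjusted p under 0.05, and 0 were called. Other marker lists went both ways. All tested markers of acinar cells (10), B and plasma cells (6) and hepatocytes (5) lay below 0. All 6 myofibroblast and pericyte markers and 7 of 8 tumour epithelium markers lay above it. The part of neutrophil or macrophage abundance in the differences of Mmp8, Mmp9 and Mmp25 was not tested. Without Saline 4 the log2 fold changes were -0.41 for Mmp8, -0.30 for Mmp9 and -0.31 for Mmp25. When libraries 1 and 2 (Xist) and libraries 3 and 4 (Y-linked) were taken apart, the log2 ratios of group means were -0.69 and -0.90 for Mmp8, -0.07 and -1.27 for Mmp9, and -0.09 and -1.02 for Mmp25. For Mmp9 and Mmp25 the difference thus sat in libraries 3 and 4, which include Saline 4. Whether it was unequal between the kinds of library was not tested.

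**Figure D3:**
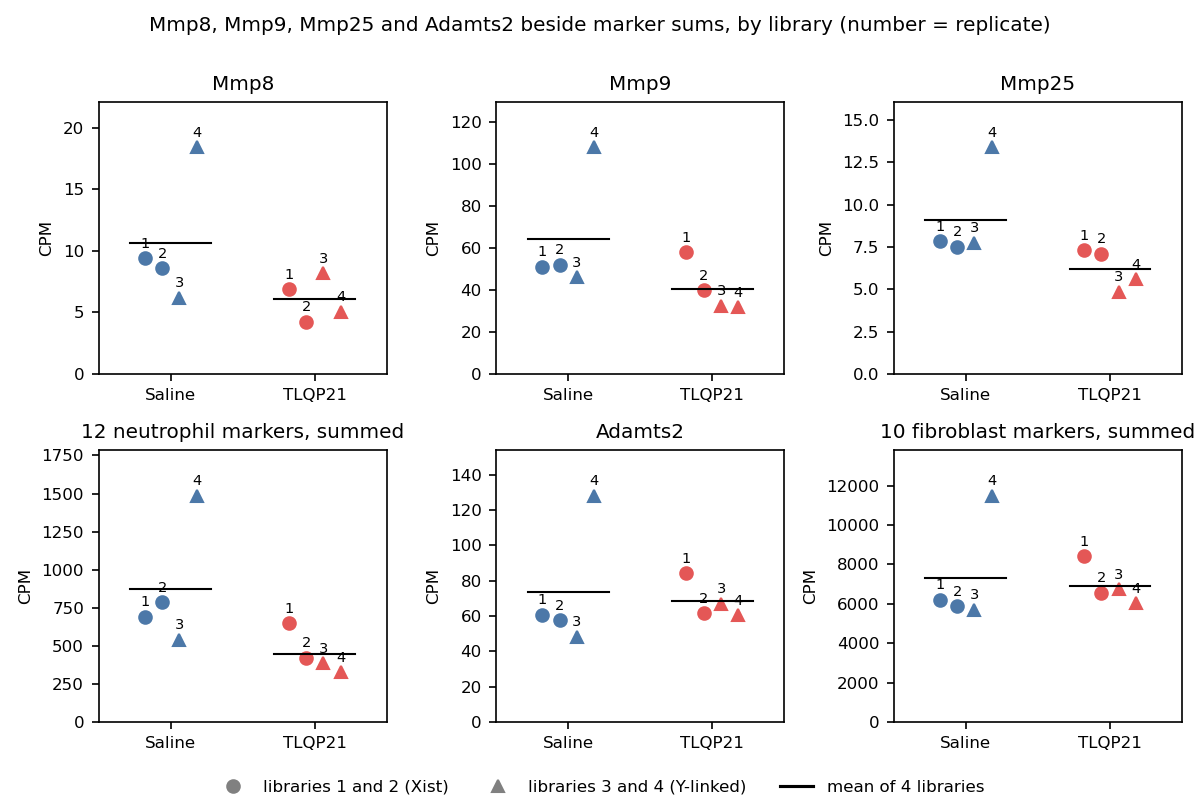
CPM in each library (number, replicate; circles, libraries 1 and 2; triangles, libraries 3 and 4; line, mean of 4) for Mmp8, Mmp9, Mmp25 and Adamts2, beside the summed CPM of 12 neutrophil and 10 fibroblast markers. Saline 4 is the highest library in all 6 panels, at 108 CPM for Mmp9 and 128 for Adamts2.

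A block of Mmp genes lies side by side on mouse chromosome 9. In the order Mmp13, Mmp12, Mmp1b, Mmp3, Mmp10, Mmp8, Mmp27, Mmp20 and Mmp7, these 9 members span 427.1 kb from 7272514 to 7699585 (GRCm38), and 7 of them were tested. Most of them also share a promoter feature that their selection did not use. RefSeq promoter windows (GRCm38.p6, from 250 bases before to 50 after the annotated start) were at hand for 31 members. The 14 members without a window, among them Mmp2, Mmp9 and Adamts4, all lie outside the block and were not searched. Whether the motif is particular to the block within the family is therefore not known. The 7-letter motif TGANTCA (N, any base) reads the same on both strands. It is a loose form of the AP-1 site that Fos and Jun dimers bind. This motif occurred in a window of 7 of the 9 clustered genes (77.8%) and in 0 of the 22 other members with a window. Of all 27025 genes with a window 8.97% held it. The match began 35 to 95 bases before the start, and Mmp8 and Mmp27 had none. It read TGACTCA in Mmp13, TGAATCA in Mmp20 (95 bases before the start) and TGAGTCA in the other genes with a match. A match is a run of letters, not a measured binding site. The 100 bases before the start are shown for the tested genes with a match and for their neighbour Mmp8 without one, so that the place of the motif can be compared between neighbours. Capitals mark the motif, and all are on the plus strand. Mmp12 and Mmp7 have a second RefSeq window without the motif, and the window with it is shown.
Mmp13 (chr9:7272414-7272513): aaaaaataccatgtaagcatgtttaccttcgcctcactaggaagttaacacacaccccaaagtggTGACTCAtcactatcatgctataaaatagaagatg
Mmp12 (chr9:7347274-7347373): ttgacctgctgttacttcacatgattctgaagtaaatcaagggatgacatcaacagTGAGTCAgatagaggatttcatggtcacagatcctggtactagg
Mmp3 (chr9:7445722-7445821): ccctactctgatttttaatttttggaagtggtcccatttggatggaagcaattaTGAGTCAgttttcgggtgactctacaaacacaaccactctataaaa
Mmp10 (chr9:7502242-7502341): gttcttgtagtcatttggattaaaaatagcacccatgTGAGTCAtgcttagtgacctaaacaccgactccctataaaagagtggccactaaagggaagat
Mmp7 (chr9:7691990-7692089): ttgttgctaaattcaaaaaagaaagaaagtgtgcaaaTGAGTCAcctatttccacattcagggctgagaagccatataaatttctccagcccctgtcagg
Mmp8 (chr9:7558329-7558428): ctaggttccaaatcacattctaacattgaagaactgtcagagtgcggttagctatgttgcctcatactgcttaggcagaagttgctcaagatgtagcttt

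The clustered genes had, by their median, a wider spread between libraries than the rest of the family. All 7 tested had a log2 fold change below 0, and 0 were called. The SD of log2 CPM over the 8 libraries had a median of 0.67 for the 7 tested cluster genes, 0.31 for the 29 other tested members and 0.25 for all genes. The sets overlapped: Adamts3 (0.81), Adamts16 (0.63) and Mmp9 (0.56) exceeded Mmp12 (0.49) and Mmp7 (0.46). Mmp13, the main fibrillar collagenase of the mouse, was at 58.8, 52.1, 13.3 and 61.5 CPM under saline and at 48.8, 46.5, 21.6 and 31.6 in TLQP21. Saline 3 was lowest and TLQP21 3 next, and the groups overlapped widely (log2 fold change -0.32, SE 0.42, 95% interval -1.27 to 0.62). Mmp10, a stromelysin of epithelial cells, had the same 2 lowest libraries and the same highest, at 6.81, 5.46, 1.37 and 8.36 CPM under saline and 5.54, 5.76, 2.52 and 4.08 in TLQP21. Its highest and lowest libraries differed 6.09-fold. Mmp12, the macrophage elastase and the most abundant of the block per kilobase after Mmp7, was at 156, 164, 65.1 and 164 CPM under saline and 144, 156, 90.4 and 109 under TLQP21 (log2 fold change -0.14, SE 0.28). Mmp3, the stromelysin that activates other pro-Mmps, was at 37.1, 24.1, 10.3 and 29.4 CPM under saline and 28.5, 23.7, 13.3 and 12.9 in TLQP21 (-0.36, SE 0.38). Saline 3, TLQP21 3 and TLQP21 4, which carry Y-linked transcripts, were the 3 lowest libraries for each of these 4 genes, while Saline 4, the fourth such library, was among the 3 highest. The same 3 libraries were lowest for Mmp7 and, outside the block, for Timp1, Mmp2, Mmp23, Adamts4 and Adamts16, which makes 10 of 36 tested members (27.8%) against 5.58% of all genes, a count made after the values were seen. Without Saline 3 the log2 fold change was -0.63 for Mmp13, -0.62 for Mmp3 and -0.37 for Mmp12.

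The other genes of the block differed among themselves. Mmp7, the matrilysin of glandular epithelium, was at 38.9, 20.6, 19.9 and 25.6 CPM in the Saline libraries and 27.8, 27.98, 18.8 and 13.7 in the TLQP21 libraries, with a log2 fold change of -0.25 (SE 0.27). Mmp8, given above, was lowest in TLQP21 2 and not in Saline 3. Mmp27, a little-studied member, had 6 to 28 counts per library, too few to order the libraries. For Mmp13, Mmp12, Mmp3 and Mmp10 no adjusted p was below 0.9999.

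**Figure D4:**
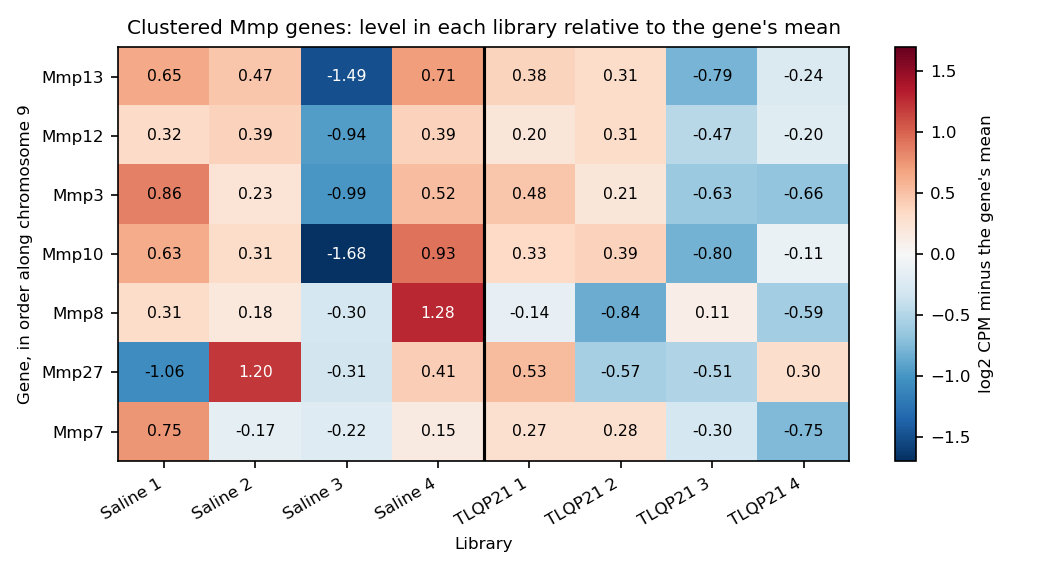
log2 CPM minus the gene's mean over 8 libraries (colour and printed value) for the 7 tested genes of the chromosome 9 block, in chromosomal order (rows) and by library (columns; black line between Saline and TLQP21). Saline 3 reaches -1.49 for Mmp13 and -1.68 for Mmp10, while Mmp8 peaks in Saline 4 at 1.28.

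The abundant stromal and membrane-bound enzymes Mmp14 and Mmp2 had log2 fold changes near 0, with a wider interval for Mmp2. Mmp14 was at 456, 456, 431 and 542 CPM under saline and 467, 487, 463 and 394 under TLQP21 (log2 fold change -0.06, SE 0.11, 95% interval -0.30 to 0.18). Mmp2 was at 178, 175, 134 and 288 CPM under saline and 232, 175, 159 and 168 in TLQP21 (-0.08, SE 0.22, 95% interval -0.57 to 0.41). Saline 4 was highest for both, and without it the value for Mmp2 was 0.17. Mmp15, another membrane-type enzyme, was at 42.6 ± 2.65 and 43.4 ± 6.40 CPM. Mmp24, a membrane-type enzyme best known from neurons, had 9 to 22 counts per library and a log2 fold change of -0.47 (SE 0.30), and Mmp17 had 31 to 76 counts. Among the other secreted enzymes, Mmp11, the stromelysin-3 of tumour stroma, was at 22.7 ± 2.29 CPM under saline and 25.4 ± 4.25 in TLQP21 (0.16, SE 0.14). Mmp19 was at 20.2 ± 3.82 and 22.7 ± 6.59 CPM (0.17, SE 0.21), with TLQP21 1 highest at 32.1. Mmp23 was at 16.2 ± 4.35 and 14.3 ± 4.97 CPM (-0.19, SE 0.26). Mmp28, epilysin, an enzyme of epithelia, was the steadiest of the Mmp genes, with 1.21-fold between its highest and lowest libraries (42.1 ± 2.86 and 43.9 ± 4.57 CPM).

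The procollagen N-proteinases, which remove the amino-terminal propeptides of fibrillar collagens, split by abundance. Adamts2 was at 60.7, 57.6, 48.2 and 128 CPM under saline and 84.2, 61.5, 66.9 and 60.4 under TLQP21 (log2 fold change -0.11, SE 0.28). Saline 4 alone exceeded TLQP21 1, the next highest. The 10 fibroblast markers, among them the collagen substrates Col1a1 and Col3a1, showed the same 2 libraries on top, with summed levels of 11493 CPM in Saline 4 and 8401 in TLQP21 1 against 5688 to 6728 in the other 6, and none was at 0. Of these markers 6 of 10 lay below 0 and 0 were called, and their part in the Adamts2 values was not tested. Without Saline 4 the log2 fold change of Adamts2 turned to 0.29. Adamts14 was at 5.96 ± 1.71 and 5.88 ± 1.43 CPM. Adamts3, whose procollagen II activity is known from cartilage, had 20 to 87 counts per library and was at 0.783 and 0.700 CPM in Saline 1 and 2 and at 1.30 to 2.98 in the other 6 libraries (0.40, SE 0.47).

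The hyalectanases cleave versican, aggrecan and their relatives. Adamts1 led them at 130, 135, 124 and 215 CPM under saline and 121, 130, 125 and 188 in TLQP21, so that 1 library in each group, Saline 4 and TLQP21 4, stood apart from 3 close neighbours (log2 fold change -0.10, SE 0.20). Adamts4, an aggrecanase induced in inflammation, was at 44.0, 37.2, 36.7 and 67.9 CPM under saline and 43.0, 42.8, 34.3 and 36.7 in TLQP21 (-0.25, SE 0.19); without Saline 4 its log2 fold change was -0.01. Adamts9 was at 33.3 ± 7.67 and 32.9 ± 6.38 CPM, Adamts15 at 35.9 ± 4.27 and 36.5 ± 10.7, and Adamts5, the other main aggrecanase, at 14.8 ± 3.52 and 14.2 ± 2.20. Adamts8 had 20 to 50 counts per library (0.17, SE 0.27). Adamts1 and Adamts5 lie 53.1 kb apart on chromosome 16, yet TLQP21 4, the second highest library for Adamts1, was in the middle of the range of Adamts5 at 13.8 CPM. Adamts15 and Adamts8 are likewise neighbours, 20.1 kb apart on chromosome 9. Adamts15 peaked in TLQP21 1 at 50.5 CPM and Adamts8 in Saline 4 at 1.51.

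Adamts12, which cleaves cartilage oligomeric matrix protein, was the member with the smallest unadjusted p and the only one of the 4 under 0.05 that lay higher in TLQP21. It was at 55.2, 51.2, 60.2 and 54.2 CPM under saline and at 58.4, 67.9, 64.9 and 84.5 in TLQP21. TLQP21 4 was highest, and the groups overlapped because TLQP21 1 lay below Saline 3. The log2 fold change was 0.32 (SE 0.12, 95% interval 0.06 to 0.58, edgeR adjusted p = 0.9999), and it was 0.20 without TLQP21 4. Libraries 1 and 2 alone gave a log2 ratio of 0.25 and libraries 3 and 4 of 0.38. Adamts10, which binds fibrillin microfibrils, was at 47.2 ± 5.32 and 44.4 ± 8.86 CPM (-0.09, SE 0.15), with TLQP21 4 lowest at 31.3. Adamts7, which also cleaves cartilage oligomeric matrix protein, was at 17.6 ± 3.22 and 16.8 ± 1.25 CPM, and Adamts6 at 13.1 ± 2.13 and 14.6 ± 4.14. Adamts16 and Adamts17 were near the floor of the test, with 17 to 68 and 9 to 21 counts per library (Adamts17 -0.38, SE 0.35).

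The inhibitors showed no difference beyond their spread. Timp1, an inflammation-induced inhibitor that also acts as a growth signal, was at 168, 182, 97.2 and 186 CPM under saline and 242, 177, 146 and 90.1 in TLQP21. Its extremes, TLQP21 1 and TLQP21 4, were both in the treated group, and the log2 fold change was 0.05 (SE 0.29, 95% interval -0.60 to 0.70). Libraries 1 and 2 alone gave a log2 ratio of 0.26 and libraries 3 and 4 of -0.27. Timp2, which forms the complex of Mmp14 and pro-Mmp2, was at 467 ± 47.4 and 469 ± 37.3 CPM (0.01, SE 0.105), with 1.25-fold between its extreme libraries. Timp3, which is held in the matrix and also inhibits ADAMTS enzymes, was at 223, 270, 312 and 196 CPM under saline and 279, 248, 287 and 322 in TLQP21 (0.18, SE 0.15). Libraries low in Timp1 were not low in Timp3: TLQP21 4 and Saline 3 had the lowest Timp1 and the highest Timp3. The summed level of Timp genes per kilobase was 1.05 to 1.33 times that of Mmp genes in the Saline libraries (mean 1.197 ± 0.132) and 1.25 to 1.43 times in TLQP21 (1.34 ± 0.0866), with overlapping ranges.

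The 9 members that could not be tested were close to absent. Timp4, a cardiovascular and adipose inhibitor, had 12 counts over the 4 Saline and 4 over the 4 TLQP21 libraries. Mmp20, the enamel protease, had 4 counts in all, Mmp21 6 and Mmp1b 7, of which 6 were in Saline 1. Adamts18 had 29, Adamts13, the von Willebrand factor protease of liver, 62, Mmp16 63 and Adamts20 72. Adamts19 had 39 counts, from 0 to 13 per library. None of these counts carries a comparison between the groups.

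Other genes of matrix proteolysis, taken by role, also gave no call: 0 of 59 tested of 60 (edgeR, adjusted over all genes). At an unadjusted p under 0.05 stood 2 of them, both lower, against 3.06% of all genes in either direction. The median was -0.03, and 35 lay below 0 (59.3%, against 49.4% of all genes). Among 16 membrane ADAM and ADAMTS-like genes, Adam28, a lymphocyte and epithelial sheddase, was at 2.15 CPM under saline and 1.43 under TLQP21 (log2 fold change -0.59, SE 0.26), and Adamdec1, a macrophage and fibroblast proteinase, at 5.95 and 8.20 (0.46, SE 0.23). The activators, inhibitors and receptors had 7 of 14 below 0, with Plau, the urokinase that generates plasmin, at 31.0 and 36.5 CPM (0.24, SE 0.12) and the hyaluronan receptor Cd44 at 855 and 937 (0.13, SE 0.11). Of 15 matrix substrates 8 lay below 0. Vcan, the versican substrate of the hyalectanases, was at 127, 94.5, 127 and 126 CPM under saline and 128, 129, 150 and 199 in TLQP21, without overlap by a small margin (0.35, SE 0.16, edgeR adjusted p = 0.9999). Without TLQP21 4 its value was 0.19, and with Saline 2 left out as well 0.09. The other companion without overlap (1.66% of all genes) was the AP-1 subunit Fosl2, which lay lower in TLQP21 (-0.31, SE 0.14). Its margin was small too, with 199 CPM in Saline 2 against 197 in TLQP21 4, and Saline 4 was highest at 304. Elastin, Eln, the substrate of Mmp12, was at 87.7 to 119 CPM under saline and at 156, 160, 152 and 53.2 in TLQP21, with TLQP21 4 below all others (0.30, SE 0.29). Without that library the value was 0.56, and without TLQP21 2 it was 0.19.

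Of the 14 genes listed as regulators of Mmp transcription 11 lay below 0 (49.4% of all genes), with a median of -0.20. Saline 4 was the highest library for 10 of them, against 3018 of 18238 genes. Without it 8 of 14 lay below 0 with a median of -0.03, against 9212 of 18238 genes. Il1a, an alarmin cytokine that induces Mmp genes in stromal cells, was at 21.04, 22.9, 22.9 and 57.3 CPM under saline and 24.3, 13.6, 10.7 and 12.7 under TLQP21 (log2 fold change -1.02, SE 0.37, edgeR adjusted p = 0.9999). Saline 4 was highest, as for Mmp8 and Mmp9, and without it the value was -0.54. Tnf, a macrophage cytokine, was at 21.9, 25.1, 11.8 and 29.3 CPM under saline and 19.5, 15.0, 5.91 and 6.58 in TLQP21 (-0.91, SE 0.41). TLQP21 3 and TLQP21 4 were lowest and Saline 3 next. These 3 libraries were also the 3 lowest, in any order, for Adam8, Adam19, Furin, Pcsk5 and Plaur among the other 58 companions tested. They were so for none of the other 13 regulators listed. With Tnf that makes 6 of 59 companions tested (10.2%), against 5.58% of all genes.

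On GRCm38, as the deposited table gives them, Mmp8 (ENSMUSG00000005800) lies on chromosome 9 from 7558456 to 7568485, Mmp9 (ENSMUSG00000017737) on chromosome 2 from 164940780 to 164955850 and Mmp25 (ENSMUSG00000023903) on chromosome 17 from 23628311 to 23645277. Adamts12 (ENSMUSG00000047497) lies on chromosome 15 from 11064790 to 11349231, Mmp14 (ENSMUSG00000000957) on chromosome 14 from 54431612 to 54445364, and Mmp13 (ENSMUSG00000050578) on chromosome 9 from 7272514 to 7283331. Timp1, Timp3 and Timp4 sit inside the synapsin genes Syn1, Syn3 and Syn2 on the opposite strand. In 13 members some exon bases are shared with another gene of the opposite strand, and since the strand setting of the counting is not given in the sources used here, those reads cannot be assigned. The shares were 22.3% of exon bases for Mmp19 (with Tmem198b), 21.3% for Timp3 (with Syn3) and 13.6% for Mmp24 (with BC029722), and lower for the other 10. For the brain gene Syn3 320 counts were recorded over the 8 libraries against 64335 for Timp3, while BC029722 had 4287 against 134 for Mmp24, so the Mmp24 values are uncertain.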

How the data were processed

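Libraries were read as 150 bp pairs from tumour RNA, per the labels' protocols. The deposited values are raw read counts per gene, and the submitters' processing notes name GRCm38 and the tools featureCounts 1.5.0-p3, HISAT2 2.0.5 and DESeq2 1.32.0. The annotation release and strand setting are not given in the sources used here. The 4 Saline and 4 TLQP21 libraries were fitted with edgeR 4.0.16 (filterByExpr by group, TMM scaling, quasi-likelihood test, Benjamini-Hochberg adjustment over 18238 genes, threshold 0.05), after a check on simulated data. DESeq2 1.42.0 and limma 3.58.1 (voom with quality weights) were alternatives, besides other scalings, filters, covariates and left-out libraries. Levels are CPM after TMM scaling, and between genes CPM per kilobase of the deposited gene length. Genes given with a fold change were, per role, the most abundant tested member and up to 2 with the smallest unadjusted p, all tested Timp genes, every member under 0.05, and up to 2 per part of the companion list. Others are given by level, or by counts, and a few were picked after their values were seen. The members and lists were chosen with earlier results of these data known. The positions of 44 of 45 members equal those of GENCODE M21. Promoter sequences and windows are from RefSeq (GRCm38.p6). Protein sequences were not analysed here.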

Additional observations from a re-analysis of the deposited data

Results flagged for a closer look

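In groups of 4 libraries, a highest or lowest value was marked where its gap to the nearest library was above the 95% critical share of the range of the group (Dixon). Of 64 groups 10 were marked, and chance marks about 1 in 20. Saline 4 stood above its group for Mmp9 (108 CPM, others 46.2 to 52.0), Adamts1 (215, others 124 to 135), Mmp25 (13.4, others 7.53 to 7.83), Adamts2 (128, others 48.2 to 60.7) and the cytokine Il1a (57.3, others 21.04 to 22.9). Saline 3 stood below its group for Mmp12 (65.1 CPM, others 156 to 164) and above it for Adamts10 (55.2, others 43.5 to 45.3). TLQP21 4 stood above its group for Adamts1 (188 CPM, others 121 to 130) and below it for Eln (53.2, others 152 to 160). Saline 2 stood below its group for Vcan (94.5 CPM, others 126 to 127).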

How the results depend on the processing

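No member was called under any alternative run, and over all genes DESeq2 called 4 and voom 1. The 4 members under an unadjusted p of 0.05 became 0 with Saline 2 and TLQP21 4 left out together, 2 with the Xist or Y-linked kind of library as a factor (Adamts12 and Mmp8), and 1 to 5 with single libraries left out (1 without Saline 4 or TLQP21 4, 2 without TLQP21 2 or TLQP21 3). With the replicate number as a block 1 member (Adamts12) stood under 0.05. Same-numbered libraries correlated at -0.0533 to 0.2715 in their deviations and 1 of 8 correlated best with its own number, so the numbers were not taken to pair the samples. The 23 members below 0 became 15 with the acinar share as covariate and 13 to 26 with single libraries left out. Signs turned for Adamts1 (0.015), Adamts2 (0.17) and Mmp2 (0.10) with the acinar covariate, for Adamts10 (0.045), Adamts2 (0.047) and Mmp14 (0.047) with voom, for Adamts10 (0.0020), Mmp12 (0.012) and Timp2 (-0.073) with that pair left out, and for Timp1 (-0.0035) with the Xist and Y-linked factor; the cause was not tested. With single libraries left out, log2 fold changes ran from -0.28 to 0.11 for Adamts1, -0.16 to 0.041 for Adamts10, -0.27 to 0.29 for Adamts2, -0.0017 to 0.33 for Adamts8, -0.10 to 0.011 for Mmp14, -0.044 to 0.30 for Mmp19, -0.22 to 0.17 for Mmp2, -0.44 to 0.013 for Mmp23, -0.38 to 0.0048 for Mmp7, -0.20 to 0.25 for Timp1 and -0.046 to 0.070 for Timp2. Signs held but sizes moved for Mmp13 (-0.63 to -0.13), Mmp3 (-0.62 to -0.12), Mmp12 (-0.37 to -0.013) and Adamts3 (0.15 to 0.83). Few counts limit Mmp24, Mmp27, Adamts8 and Adamts17. A planned comparison of protein motifs was not run.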

Other observations

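Fos and Fosb, subunits of AP-1, parted the libraries by kind rather than by treatment, an order seen after their values were known and not shared by the other 5 AP-1 subunits listed (Fosl1, Fosl2, Jun, Junb and Jund). Fosb was at 5.48 and 5.99 CPM in Saline 1 and 2 and at 49.8 and 55.2 in Saline 3 and 4, and at 6.06 and 5.47 in TLQP21 1 and 2 and 46.8 and 115 in TLQP21 3 and 4. Fos was at 53.4 to 55.2 and 92.1 to 120 CPM in the same Saline pairs and at 41.4 to 46.5 and 100.1 to 202 in the TLQP21 pairs. The libraries that carry Y-linked transcripts were thus the higher ones for both genes in each group. They are numbers 3 and 4 of both groups, so their kind cannot be told apart from anything else shared by those numbers, such as handling. Junb and Jund were instead lowest in TLQP21 4, at 225 and 25.9 CPM.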
